A study of Mus musculus with 36 samples.

Results

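Mouse duodenal organoids given DAPT in pulses with a period of 170 min for 72 h were compared with organoids kept with the solvent DMSO for 72 h, across all genes with enough counts to be tested. The comparison uses every library of both groups, 3 treated and 3 DMSO, which are 6 of the 36 libraries of the series, and the label of each library alone placed it in its group. The organoids were grown from the duodenum of C57BL/6 mice older than 8 weeks, male or virgin female. They were kept in BME with a medium of EGF, Noggin and R-spondin 1, passaged 1 day before the experiment, and held under flow in a microfluidic chip. Each library came from 20 to 50 organoids, with no enrichment of a cell type. The protocol names 2.6 µM DAPT for the 170 min period and 2 µM as a second concentration, without saying which was used for RNA. The labels do not say whether DMSO was pulsed, nor whether the 3 replicates of a group came from separate cultures or animals, so p-values measure only the spread between these samples, which may be technical. The other 30 libraries hold periods of 90 and 130 min and durations of 24 and 48 h. They enter here through the shared estimate of spread and as points of comparison. Organoids of the 24 h groups were passaged 3 days before the experiment and those of the 48 h groups 2 days before. Duration and the days from passage to the start therefore cannot be told apart.

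DAPT blocks gamma-secretase, the protease that cuts the Notch receptor after a ligand on a neighbouring cell has bound it. The freed intracellular part joins the DNA-binding protein RBPJ and switches on repressors such as Hes1, whose level oscillates because the protein represses its own gene. In the intestine Notch activity keeps progenitors from expressing Atoh1, the factor that starts the secretory fates of Paneth, goblet and enteroendocrine cells. The study entrained Hes1 oscillations with pulses of the inhibitor to ask whether their period changes which cell types are made.

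The 6 libraries held 713138 to 1201118 molecule counts (UMIs), within the 482741 to 1447330 of the series. Levels below are TMM-scaled CPM, which set each gene's count against the scaled total of its library, and values follow the order of replicates 1, 2 and 3. Mitochondrially encoded genes took 0.867% to 1.14% of the counts and the 50 highest genes 3.84% to 4.41%, and no gene exceeded 2155 counts in a library. UMI length was not given in the sources used here, and its part in that flat top was not tested. Epithelial lists were present in all 6 libraries, with 39 of 41 enterocyte genes and 24 of 26 goblet genes tested. Of the listed markers of fibroblasts and muscle, immune cells and endothelium, the 30 that the table holds did not exceed 12 counts in any library. Ptprc, Adgre1, Dcn, Lum, Kdr and Emcn were at 0 counts in all 6.

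One treated library, replicate 2, stood apart from the rest, and where leaving out this or another library moved a log2 difference or list median against DMSO at 72 h by more than 1.5 times, the value without it or the range over the 6 libraries left out in turn is given beside it. Among 8978 genes with a mean of at least 20 CPM, 21 were at least 2-fold above and 81 at least 2-fold below all other 5 libraries in it. In the other libraries these counts were 0 to 6 above and 0 to 18 below. Its lowest correlation across genes, 0.914, was with DMSO replicate 1. The genes it held low were named after their values were seen and include Olfm4, Slc2a2, Apoc3 and Reg3a, described below, and Clca4b, a member of the CLCA family, at 172, 22.2 and 142 CPM against 174, 148 and 159.7 CPM. Cps1, which makes carbamoyl phosphate from ammonia, was at 395, 55.9 and 403 CPM against 569.7, 386 and 295 CPM. Among genes it held high, Krt4, a keratin of stratified epithelium, was at 32.4, 160.4 and 47.5 CPM against 30.8, 40.9 and 90.9 CPM. Its total count was the largest of the 6, its mitochondrial share was 0.937%, and the fibroblast and muscle list summed to at most 7.2 CPM in any treated library. The part of these in its profile was not tested. Low enterocyte and high fetal-like scores, each a mean log2(CPM + 1) of the list's tested members, were also found in other groups. The enterocyte score was 5.74 in this library, and as low as 5.46 with DMSO at 48 h and 5.06 with 130 min at 72 h. The fetal-like and YAP score was 6.31 in it, and as high as 6.26 with DMSO at 24 h and 6.76 with 130 min at 72 h. Across 6427 genes with a mean of at least 50 CPM the median SD of log2(CPM + 1) was 0.138 in both groups.

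**Figure D1:**
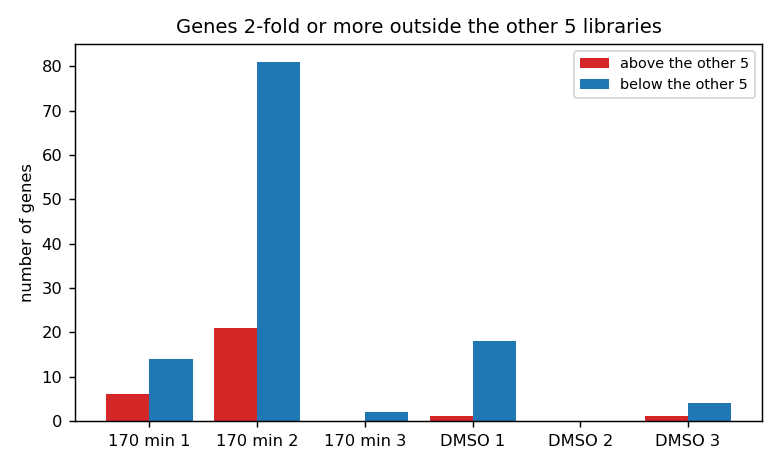
Bars give, for each of the 6 libraries, the number of genes (of 8978 with a mean of at least 20 CPM) at least 2-fold above (red) or below (blue) all other 5 libraries. Treated replicate 2 has 21 above and 81 below, and no other library exceeds 6 above or 18 below.

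No gene passed the test. Of 11462 genes tested, 0 stood higher (0%) and 0 lower (0%) at an adjusted p under 0.05 by edgeR's quasi-likelihood test with Benjamini-Hochberg adjustment, and the smallest adjusted p was 1.00. At an unadjusted p under 0.05 there were 249 genes, 127 higher and 122 lower, and 160 by DESeq2, which also called 0. If no gene differed, a share of about 0.05 of the 11462 genes would fall there, and both counts were below it. In 548 genes (4.78%) all 3 treated libraries lay above all 3 DMSO libraries, and in 476 genes (4.15%) all lay below. For 3 against 3 libraries that do not differ, no overlap in either direction has a probability of 0.1. Both shares together stayed below it. The median log2 difference over all genes was -0.0011, with 49.8% of genes higher. The median standard error (SE) was 0.22 on the log2 scale. In 236 genes the difference was at least 2-fold, and in 72 of those the groups did not overlap. The values that follow therefore describe these 6 libraries, and no gene named below is called as changed.

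**Figure D2:**
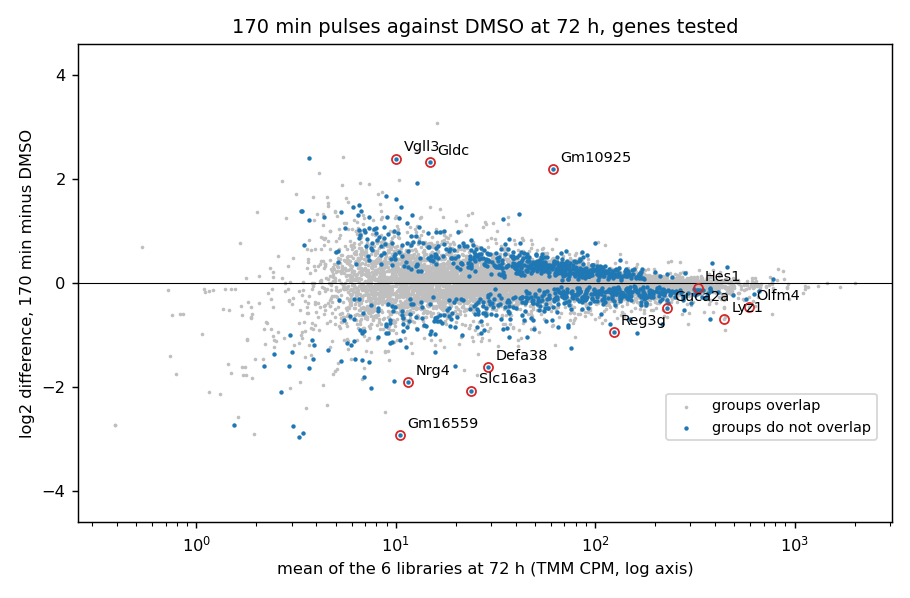
Each point is 1 of the 11462 genes tested, with the mean of the 6 libraries at 72 h in TMM CPM on a log x axis and the log2 difference of 170 min minus DMSO on the y axis. Blue points are genes whose groups do not overlap (548 higher, 476 lower), grey points overlap, and red circles mark named genes, none of which passed the test.

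The Notch pathway itself was described first. Hes1, the repressor that Notch signalling induces, had 347, 274 and 325 CPM in the treated libraries and 382, 316 and 316 CPM in the DMSO libraries. The groups overlapped and the log2 difference was -0.10 (SE 0.13). It was 0.0019 without treated replicate 2, -0.16 without treated replicate 1 and -0.0042 without DMSO replicate 1. Of 6 tested Notch targets and effectors 4 stood higher and 2 lower, with a median log2 difference of 0.07 and 0 past the test. Over the 6 fits that each left out 1 library this median ran from 0.02, without treated replicate 2, to 0.19, without treated replicate 1. Maml2, a coactivator of the RBPJ complex, was at 10.1, 46.9 and 16.2 CPM against 7.32, 13.3 and 9.52 CPM. Treated replicate 2 held the high value and the other treated libraries were within a few CPM of the highest DMSO library. The log2 difference of 1.27 (SE 0.51) was 0.34 without it. RBPJ itself, as Rbpj, was at 50.6, 66.6 and 56.8 CPM against 54.2, 55.1 and 56.0 CPM, with overlapping groups.

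Among Notch ligands and receptors 7 of 12 were tested, and 4 stood higher and 3 lower, with a median of 0.07. The median ran from -0.07, without DMSO replicate 1, to 0.25, without DMSO replicate 2, and was -0.06 without treated replicate 2. Dll1, a ligand of secretory progenitors, had 63.8, 55.1 and 56.8 CPM against 33.7, 61.4 and 56.0 CPM, which is a log2 difference of 0.18 (SE 0.21) that was -0.0075 without DMSO replicate 1 and 0.35 without DMSO replicate 2. Dll4, the other main ligand of these cells, had 41.5, 64.1 and 40.5 CPM against 35.1, 58.7 and 44.4 CPM. Both ligands overlapped between the groups. Jag2 was the 1 member of the 7 whose groups were apart, beside 4.78% of all genes, at 66.9, 81.4 and 64.9 CPM in the treated libraries and 55.6, 49.8 and 55.0 CPM in the DMSO libraries, and its difference of 0.42 (SE 0.29) did not pass. Jag1 was at 71.9, 114 and 56.8 CPM against 89.3, 86.3 and 88.8 CPM, with treated replicate 2 above and the other treated libraries below every DMSO library. The receptor Notch2 was at 111, 139.8 and 117 CPM against 109.8, 125 and 98.3 CPM. The receptor Notch3 was at 5.07, 12.3 and 10.4 CPM against 10.3, 13.3 and 18.0 CPM, and both receptors overlapped between the groups. Notch1 had too few counts to be tested: before TMM scaling it was at 7.16, 5.83 and 5.70 CPM in treated libraries and 2.80, 1.79 and 4.18 CPM with DMSO. These low levels rest on few molecules, and no test was made of them.

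Genes of gamma-secretase and of Notch processing, the machinery DAPT acts on, stood higher in 7 of 10 tested members, with a median of 0.15. With 1 library left out the median was lowest, at 0.07, without DMSO replicate 1. Ncstn, the nicastrin subunit, had lower values in most treated libraries, at 99.3, 97.9 and 117 CPM against 145, 135 and 114 CPM. Poglut1, which puts O-glucose on Notch, was at 67.9, 66.6 and 67.2 CPM against 45.4, 56.9 and 62.4 CPM. The groups of Ncstn overlapped, and those of Poglut1 were apart. The list's score, the mean log2(CPM + 1) of its tested members, was also apart. It stood at 6.04, 6.02 and 6.01 in treated and 5.90, 5.95 and 5.94 in DMSO libraries. Among the 32 lists scored, the only others with scores apart were the BMP targets and the antimicrobial and Reg genes. That share is close to the 0.1 given above for libraries that do not differ.

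Atoh1, the switch to secretory fate, had 60.8, 116 and 91.5 CPM in the treated libraries and 83.5, 96.1 and 76.1 CPM in the DMSO libraries. The treated libraries lay on both sides of the DMSO range, and the log2 difference was 0.08 (SE 0.21). It ran from -0.18, without treated replicate 2, to 0.30, without treated replicate 1. Over the list of secretory progenitor genes 10 of 12 tested members stood higher and 2 lower, with a median of 0.08, and 1 had higher groups that did not overlap, beside 4.78% of all genes. The median ran from 0.04, without treated replicate 2, to 0.17, without treated replicate 1. That was Gfi1, a repressor acting below Atoh1, at 25.3, 48.5 and 27.8 CPM in the treated libraries and 19.0, 24.0 and 22.2 CPM in the DMSO libraries. Its difference of 0.64 (SE 0.32) came with its highest value in treated replicate 2, and it was 0.27 without that library. Neurog3, which starts the enteroendocrine fate, was untested, at 3.07, 1.67 and 0 CPM against 5.61, 2.68 and 4.18 CPM before TMM scaling.

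Paneth cell genes leaned lower. Of 20 tested members 19 stood lower and 1 higher, with a median log2 difference of -0.70 against -0.0011 over all genes. The median was -1.02 without treated replicate 3 and -0.41 without treated replicate 1. In 5 of the 20 all treated libraries lay below all DMSO libraries, beside 4.15% of all genes, and 0 passed the test. The same list had medians of 0.03 at 24 h and 0.21 at 48 h. In these bulk samples fewer Paneth cells and less of these RNAs per cell cannot be told apart.

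Ang4, an antimicrobial angiogenin, is one example, with 113, 149.7 and 215 CPM in the treated libraries and 299, 281 and 241 CPM in the DMSO libraries. Every treated library lay below every DMSO library and the log2 difference was -0.78 (SE 0.32). Pla2g2a, a secreted phospholipase gene, is annotated as a polymorphic pseudogene in GENCODE M21, and whether an active enzyme is made was not tested. It had 132.7, 68.3 and 143.6 CPM against 219.7, 190.3 and 143.8 CPM, with its closest treated and DMSO libraries nearly level. Mmp7, the protease that activates defensins in the mouse, had 289, 307 and 345 CPM against 369, 386 and 372 CPM. Both stood lower with groups that did not overlap, and their log2 differences were -0.70 (SE 0.32) and -0.26 (SE 0.26). That of Pla2g2a was -0.41 without treated replicate 2. The alpha-defensin Defa38 was at 7.09, 13.2 and 23.2 CPM against 45.4, 53.4 and 31.7 CPM. Its relative Defa29 was at 68.9, 103 and 159 CPM against 258, 211 and 172 CPM. Both were apart between the groups, with differences of -1.62 (SE 0.79) and -0.96 (SE 0.45). Defa24 overlapped, at 145, 170.2 and 331 CPM against 412, 382 and 317 CPM, since treated replicate 3 lay above the lowest DMSO library. Defensin genes are near-identical copies, so the count of each single copy is uncertain.

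Lyz1, lysozyme of the Paneth granule, was uneven in both groups. It was at 239, 179 and 602 CPM in the treated libraries and 726, 617 and 299 CPM in the DMSO libraries. Treated replicate 3 was level with the high DMSO libraries, and DMSO replicate 3 was close to the low treated ones. The Paneth score, the mean log2(CPM + 1), ran the same way, at 5.67, 6.20 and 6.97 in treated and 7.23, 7.16 and 6.81 in DMSO libraries. The lowest DMSO library was thus below the highest treated library.

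**Figure D3:**
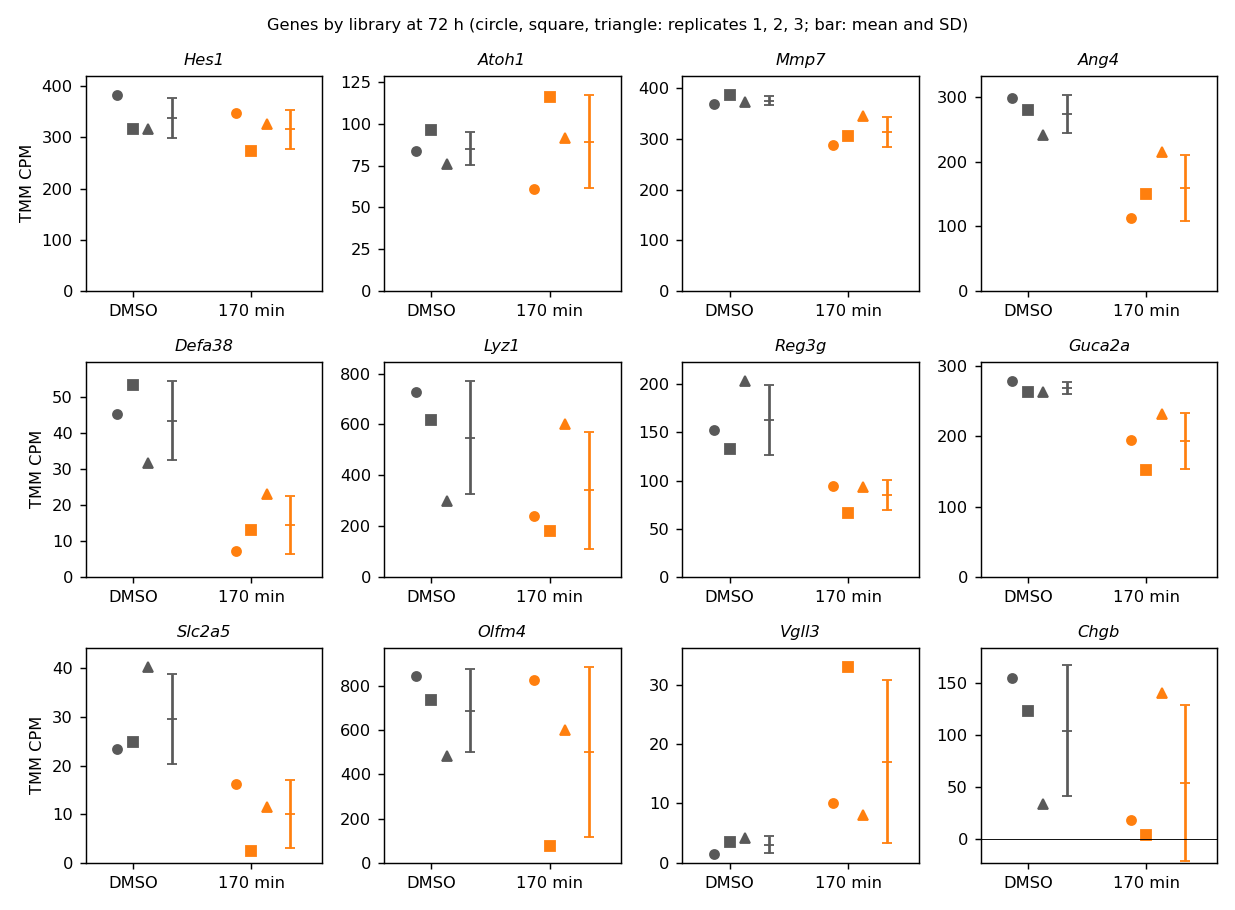
TMM CPM (y axis, from 0 unless an SD bar reaches below it) of 12 genes in each DMSO (grey) and 170 min (orange) library at 72 h, with circles, squares and triangles for replicates 1, 2 and 3 and a bar for the mean and SD of 3. Ang4, Defa38, Reg3g, Guca2a and Slc2a5 have all treated libraries below DMSO, Vgll3 has all above, Hes1 and Atoh1 overlap, and treated replicate 2 is far below the other 5 in Olfm4.

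Antimicrobial and Reg genes, which are secreted lectins and related defence genes of the epithelium, also leaned lower. Of 11 tested 9 stood lower and 2 higher, with a median of -0.65 and 0 past the test, and 2 had groups apart, beside 4.15% of all genes that lay lower without overlap. The list's score was 6.63, 5.45 and 6.57 in treated and 6.75, 6.75 and 6.85 in DMSO libraries, so every treated library was lower. The share of list scores apart is given above with gamma-secretase. The median was -0.36 without treated replicate 2, -0.40 without DMSO replicate 1 and -0.43 without DMSO replicate 2.

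Reg3g, a lectin that binds Gram-positive bacteria, had 94.2, 66.6 and 93.8 CPM in the treated libraries and 152, 133 and 203 CPM in the DMSO libraries. No treated library reached the lowest DMSO value, and the log2 difference was -0.95 (SE 0.39). With replicate number as a block in the 6 libraries alone the gene passed at an adjusted p of 0.000813 by edgeR, and in that block over the 12 libraries of 72 h it did not. Reg3a had 53.7, 9.87 and 76.5 CPM against 90.8, 94.3 and 129 CPM, also without overlap, and treated replicate 2 was 5.44-fold below the next library. Its log2 difference was -1.25 (SE 0.74), and -0.70 without that library. Reg1, another secreted lectin, was at 289, 150.5 and 500.4 CPM against 442, 527 and 775 CPM. Pigr, the transporter of secretory IgA, was at 182, 106 and 248 CPM against 288, 236 and 309 CPM. In both the highest treated library passed the lowest DMSO library. Their differences were -0.91 (SE 0.45) and -0.65 (SE 0.25). Without treated replicate 2 they were -0.56 and -0.36, and that of Reg1 was -1.42 without treated replicate 3.

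The promoters of 3 genes that stood lower together in every treated library are shown, because their windows can be read for the RBPJ core, which the partner of the Notch intracellular part binds, and the TCF core, which the DNA-binding partners of beta-catenin bind in Wnt signalling. They are the 250 bases before the RefSeq start in GRCm38.p6, at chr8:21096051-21096300 on the minus strand for Defa38, chr6:78380459-78380708 on the plus strand for Reg3a and chr6:78468875-78469124 on the minus strand for Reg3g. Capitals mark the cores. The RBPJ core searched was TGGGAA, which reads TTCCCA on the other strand. The TCF core searched was CTTTGA, which reads TCAAAG on the other strand. Both strands were searched and no marked stretches overlap.
Defa38: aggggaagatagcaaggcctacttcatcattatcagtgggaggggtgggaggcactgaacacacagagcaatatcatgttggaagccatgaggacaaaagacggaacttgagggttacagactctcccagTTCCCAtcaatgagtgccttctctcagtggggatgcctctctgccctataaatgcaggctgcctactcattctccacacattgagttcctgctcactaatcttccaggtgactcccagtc
Reg3a: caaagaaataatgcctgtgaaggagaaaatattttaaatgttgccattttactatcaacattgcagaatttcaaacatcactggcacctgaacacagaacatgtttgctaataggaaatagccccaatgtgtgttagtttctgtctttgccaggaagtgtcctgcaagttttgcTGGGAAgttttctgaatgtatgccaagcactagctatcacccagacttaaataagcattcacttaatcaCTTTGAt
Reg3g: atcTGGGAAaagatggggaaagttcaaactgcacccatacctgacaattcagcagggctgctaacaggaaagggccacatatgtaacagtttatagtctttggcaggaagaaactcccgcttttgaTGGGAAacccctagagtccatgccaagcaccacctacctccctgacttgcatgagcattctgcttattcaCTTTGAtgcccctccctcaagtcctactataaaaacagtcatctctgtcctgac
The RBPJ core was found 1 time in Defa38, 1 time in Reg3a and 2 times in Reg3g. It occurs in 21.6% of the 32851 promoter windows of that length. The TCF core was found 1 time in Reg3a and 1 time in Reg3g, in the 3′ part of the window in both, and in 13.8% of all windows. A match of letters is a description and does not show binding. The 3 genes were chosen without a set rule from the 476 that lay lower without overlap. The cores were not counted over the rest of these, so no share among lower genes is given.

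Enterocyte genes leaned lower as well. Of 39 tested members 37 stood lower and 2 higher, with a median of -0.37, and 3 had groups apart, beside 4.15% of all genes that lay lower without overlap. The score was 6.58, 5.74 and 6.98 in treated and 6.91, 6.99 and 7.04 in DMSO libraries. Treated replicate 2 was lowest, treated replicate 3 was level with DMSO, and the median was -0.17 without replicate 2 and -0.59 without replicate 3 of the treated group.

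Slc2a5, the fructose transporter of the brush border, had 16.2, 2.47 and 11.6 CPM in the treated libraries and 23.4, 24.9 and 40.2 CPM in the DMSO libraries. Its groups were apart by -1.60 (SE 0.75) on the log2 scale, and by -1.08 without treated replicate 2. Apoa1, the main apolipoprotein of HDL, had 282, 160.4 and 426 CPM against 458, 450.1 and 481 CPM, a difference of -0.69 (SE 0.47) that was -0.39 without treated replicate 2 and -1.08 without treated replicate 3. Both were low in all treated libraries and lowest in replicate 2. Slc2a2, the basolateral glucose transporter, had 126, 14.8 and 108 CPM against 109.8, 131 and 162 CPM. Apoc3, an inhibitor of lipoprotein lipase, had 132, 19.7 and 190.0 CPM against 209, 162 and 174 CPM. In these the groups overlapped, and treated replicate 2 was far below the other 5 libraries. Alpi, the intestinal alkaline phosphatase, was at 561, 519 and 709 CPM against 636, 658 and 611 CPM. Fabp1, a fatty acid carrier, was at 172, 165 and 255 CPM against 253, 262 and 247 CPM. Sis, the sucrase-isomaltase of the brush border, was at 356, 155 and 437 CPM against 414, 389.6 and 576 CPM. None of those was apart between the groups. Genes of xenobiotic metabolism stood lower in 26 of 31 tested members, median -0.20, which was -0.10 without treated replicate 2 and -0.34 without treated replicate 3. Gstm1, a glutathione transferase, was at 791, 693 and 1029 CPM against 1098, 904 and 1108 CPM. Ugt2b36, which adds glucuronic acid, was at 76.0, 87.2 and 159.8 CPM against 146, 163 and 174 CPM. In both treated replicate 3 was within the DMSO range and the other treated libraries were below it.

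Goblet cell genes were balanced, 11 higher and 13 lower of 24 tested, with a median of -0.03 that ran from -0.18, without treated replicate 3, to 0.07, without treated replicate 1. Guca2a, the hormone guanylin, was among the goblet genes that stood lower. It had 194, 152 and 232 CPM in the treated libraries and 278, 263 and 263 CPM in the DMSO libraries. All 3 treated libraries were below a tight DMSO range, and the log2 difference was -0.48 (SE 0.16). Muc2, the gel-forming mucin, was at 305, 344 and 479.6 CPM against 438, 367 and 487 CPM. Tff3, the trefoil peptide packed with it, was at 526, 827 and 932 CPM against 816, 639 and 866 CPM. Neither mucin nor trefoil gene was apart. Tmed3, a cargo receptor of the secretory path, stood lower without overlap at 99.3, 110.2 and 120.5 CPM against 130.3, 137 and 131 CPM. Sytl2, a synaptotagmin-like protein of vesicle transport, stood higher without overlap at 76.0, 94.6 and 75.3 CPM against 65.9, 55.1 and 64.5 CPM.

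Enteroendocrine genes had 17 lower and 5 higher of 22 tested, with a median of -0.44, but they split the libraries across the groups. Chgb, a granin of hormone granules, was at 18.2, 4.11 and 140.2 CPM in the treated libraries and 155, 124 and 33.8 CPM in the DMSO libraries. Chga, its relative, was at 12.2, 2.47 and 48.6 CPM against 38.1, 37.4 and 6.34 CPM. Treated replicate 3 and DMSO replicates 1 and 2 were high in both, and the other 3 libraries were low. The score was 2.26, 1.90 and 4.02 against 4.04, 3.89 and 2.29. Leaving out each of the 6 libraries in turn moved the median between -1.42, without treated replicate 3, and -0.05, without treated replicate 2. Of 23 tuft cell genes 10 were tested, 3 higher and 7 lower, with a median of -0.20 that was 0.05 without treated replicate 2 and between -0.48 and -0.30 without each of the other 5 libraries.

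**Figure D4:**
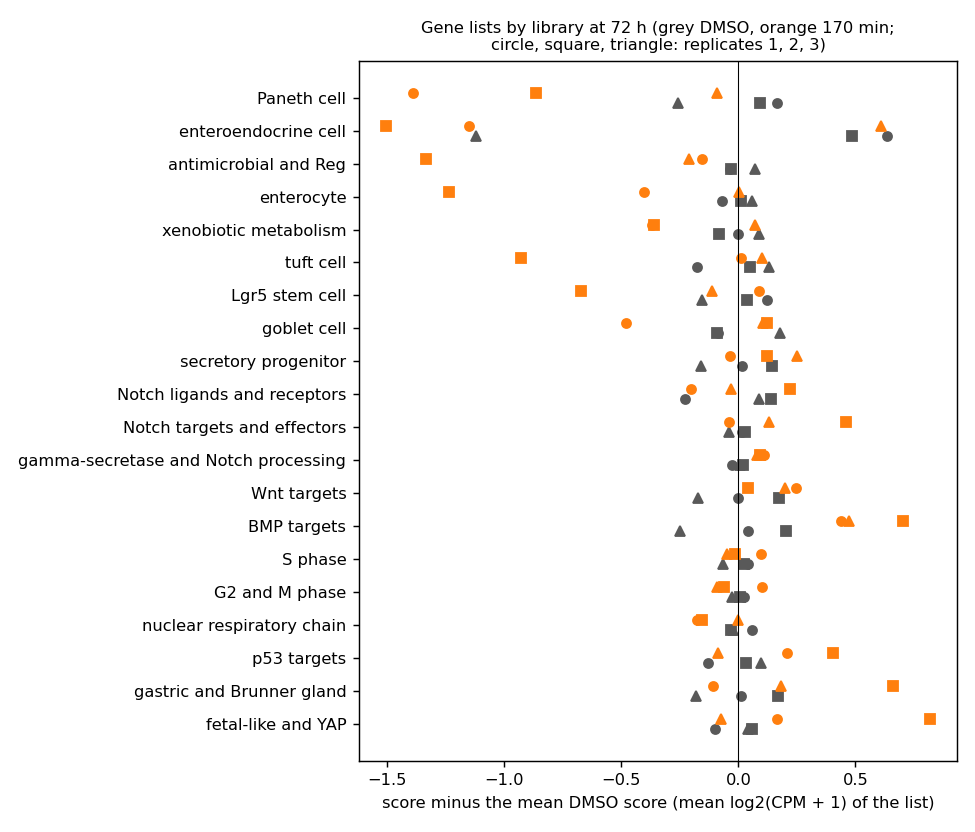
For 20 gene lists, the x axis gives each library's score (mean log2(CPM + 1) over the tested members) minus the mean DMSO score. Grey is DMSO, orange 170 min, and circles, squares and triangles are replicates 1, 2 and 3. Treated replicate 2 (orange squares) is lowest in the enterocyte, antimicrobial and stem cell lists and highest in the fetal-like list. Treated replicate 1 is lowest in the Paneth list.

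Stem cell genes stood lower in 14 of 16 members, with a median of -0.15, which was -0.02 without treated replicate 2, -0.26 without treated replicate 1 and -0.25 without DMSO replicate 3. Lgr5, the R-spondin receptor of crypt base stem cells, was at 148, 60.9 and 139 CPM against 186, 151 and 131 CPM, a difference of -0.44 (SE 0.30). It was -0.10 without treated replicate 2, where the level was low, and -0.67 without treated replicate 1. Olfm4, a secreted glycoprotein of the same cells whose gene Notch is known to maintain, was at 825, 76.5 and 599 CPM in the treated libraries and 846, 736 and 484 CPM in the DMSO libraries. In replicate 2 it was 6.33-fold below the next library, and the log2 difference of -0.47 (SE 0.56) was 0.055 without that library, -1.04 without treated replicate 1 and -0.30 without DMSO replicate 1. Ascl2, the factor that sets stem cell identity, was at 209, 199 and 214 CPM against 243, 221 and 219 CPM. Its groups were apart by -0.13 (SE 0.15), less than its SE, and by -0.09 without DMSO replicate 1. Znrf3, a ligase that removes Wnt receptors, was the other of 2 stem cell genes apart, beside 4.15% of all genes. It was at 92.2, 84.7 and 70.7 CPM against 92.3, 128 and 98.3 CPM, with a difference of -0.37 (SE 0.20) that was -0.20 without DMSO replicate 2. Wnt targets as a list had 7 higher and 6 lower of 13 tested, median 0.06 that ran from -0.05, without treated replicate 1, to 0.13, without treated replicate 2, with Axin2 at 125, 79.8 and 97.3 CPM against 108, 143 and 100.5 CPM. Apcdd1, a Wnt inhibitor, was higher without overlap at 7.09, 12.3 and 9.27 CPM against 5.86, 3.56 and 1.06 CPM. It has few molecules.

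The 4 tested BMP targets, of 10 listed, all stood higher, with a median of 0.33 that was 0.21 without DMSO replicate 2. Id1, an inhibitor of bHLH factors, was at 158, 164 and 116 CPM against 116, 112 and 127 CPM. Id3, of the same family, was at 58.8, 51.8 and 49.8 CPM against 51.3, 31.1 and 45.5 CPM. Id2 was at 127, 126 and 99.6 CPM against 108, 86.3 and 123 CPM. Id4 had few molecules, at 3.04, 8.22 and 8.11 CPM against 1.46, 7.12 and 0 CPM. None of the 4 was apart between the groups, but the list's score was. It stood at 5.56, 5.82 and 5.59 in treated and 5.16, 5.32 and 4.87 in DMSO libraries. In Id1 and Id2 treated replicate 3 was below DMSO replicate 3. The score weighs Id4, with its few molecules, as much as each of these, so its separation leans on Id4. The share of list scores apart is given above with gamma-secretase.

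Cell cycle genes lay close to the median of all genes. S phase genes had a median of 0.02, with 17 higher and 11 lower of 28, and G2 and M phase genes had -0.02, with 14 higher and 17 lower of 31. With each of the 6 libraries left out in turn the S phase median ran from -0.02 to 0.05 and the G2 and M phase median from -0.05 to 0.03, so neither kept its sign. Mki67, the proliferation marker, was at 240.1, 188 and 239 CPM against 226, 207 and 206 CPM, a log2 difference of 0.06 (SE 0.12) that ran from 0.01, without treated replicate 3, to 0.18, without treated replicate 2. Mcm4, a subunit of the replicative helicase, was higher without overlap at 183, 194 and 184 CPM against 174, 157 and 135 CPM. Ube2c, a ubiquitin carrier of the anaphase-promoting complex, was lower without overlap at 181, 158 and 175 CPM against 233, 188 and 193 CPM. The mitotic kinase Plk1 was at 162, 165 and 186 CPM against 219.7, 195 and 197 CPM, also without overlap. These were 2 of 4 such genes among the 31 of the G2 and M phase list, beside 4.15% of all genes.

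Fetal-like and YAP genes, which mark regenerating epithelium, stood higher in 20 of 25 tested members with a median of 0.38. The medians were -0.46 at 24 h and -0.31 at 48 h, and at 72 h the median was 0.04 without treated replicate 2 and 0.58 without treated replicate 3. Ly6a, known as Sca-1, was at 268, 429 and 217 CPM against 211, 216 and 265 CPM. Clu, the chaperone clusterin, was at 242, 407 and 239.8 CPM against 253, 215 and 306 CPM. In both the value of replicate 2 was highest and the other treated libraries lay in the DMSO range or a few CPM above it. Genes of stomach and Brunner glands had a median of 0.41 that was -0.11 without replicate 2 and 0.75 without treated replicate 1, with Psca at 28.4, 92.9 and 30.1 CPM against 11.7, 23.1 and 33.8 CPM. The p53 targets stood higher in 22 of 27, median 0.19, and 0.12 without that library. Bax, which opens the mitochondrial membrane in apoptosis, was at 45.6, 83.9 and 52.1 CPM against 35.1, 44.5 and 43.4 CPM. Btg2, which slows growth, was at 118, 142 and 149 CPM against 113, 113 and 117 CPM. Both were apart between the groups. Cdkn1a, the p21 cell cycle inhibitor, overlapped at 275, 297 and 219 CPM against 306, 207 and 302 CPM.

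**Figure D5:**
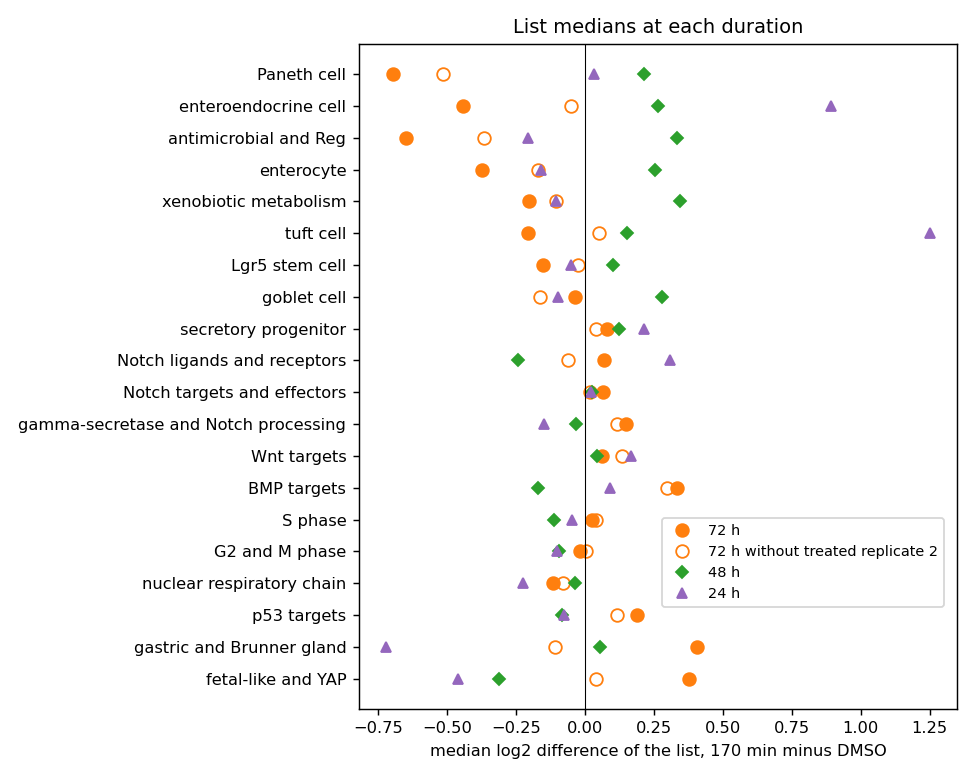
The x axis gives the median log2 difference of 170 min minus DMSO over the tested members of 20 lists: at 72 h (filled orange), at 72 h without treated replicate 2 (open orange), at 48 h (green) and at 24 h (purple). The Paneth median is -0.70 at 72 h and -0.52 without the library, and the fetal-like median goes from 0.38 to 0.04.

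Nuclear genes of the respiratory chain stood a little lower, with 82 of 93 tested lower, 14 lower without overlap and 0 higher without overlap, beside 4.15% and 4.78% of all genes. The median was -0.12, and -0.07 with library total as a covariate. Ndufb7, a subunit of complex I, was at 104, 109 and 115 CPM against 148, 131 and 142 CPM. Uqcrb, of complex III, was at 146, 159 and 168 CPM against 211, 192 and 179.8 CPM. Cytosolic ribosomal proteins had 56 lower and 23 higher of 79, with a median of -0.05 that ran from -0.09, without treated replicate 3, to -0.0042, without DMSO replicate 1. The 7 tested mitochondrially encoded genes had a median of 0.01 that ran from -0.10, without DMSO replicate 2, to 0.13, without DMSO replicate 1.

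The higher genes with the smallest unadjusted p-values came from several functions. Vgll3, a cofactor of TEAD transcription factors, had 10.1, 32.9 and 8.11 CPM in the treated libraries and 1.46, 3.56 and 4.23 CPM in the DMSO libraries. All treated libraries were above DMSO and replicate 2 was highest. The log2 difference was 2.40 (SE 0.70), and 1.47 without replicate 2. Gldc, the glycine decarboxylase of the glycine cleavage system, had 14.2, 44.4 and 16.2 CPM against 2.93, 8.01 and 3.17 CPM, a difference of 2.33 (SE 0.81) that was 1.59 without that library. Hmox1, which breaks down heme, had 8.10, 27.1 and 10.4 CPM against 1.46, 5.34 and 7.40 CPM. Depp1, a FOXO target, had 10.1, 37.0 and 13.9 CPM against 2.93, 5.34 and 7.40 CPM. In all of these the DMSO counts were few and replicate 2 held the top value. Mrto4, a ribosome assembly factor, was more even at 77.0, 77.3 and 74.1 CPM against 42.5, 63.2 and 53.9 CPM. Lsm11, which processes histone mRNA ends, was at 42.5, 44.4 and 37.1 CPM against 20.5, 35.6 and 21.1 CPM. Their log2 differences were 0.50 (SE 0.16) and 0.65 (SE 0.22), that of Lsm11 being 0.99 without DMSO replicate 2. Mef2d, a transcription factor, was at 68.9, 92.9 and 75.3 CPM against 60.0, 63.2 and 49.7 CPM. Wdhd1, a replisome protein, was at 56.7, 41.9 and 48.6 CPM against 35.1, 32.9 and 32.8 CPM. Both were higher in every treated library than in any DMSO library. Egfr, the receptor of the EGF in the medium, was named as a member of the villus tip enterocyte list and not by this order of p. It was at 64.8, 68.3 and 64.9 CPM against 39.5, 47.1 and 51.8 CPM, also without overlap.

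Among the lower genes Gm16559, an antisense gene in GENCODE M21, had 2.03, 0.822 and 4.63 CPM in the treated libraries and 16.1, 14.2 and 25.4 CPM in the DMSO libraries. Its log2 difference was -2.93 (SE 0.78), and whether its counts can be told from those of the gene on the other strand is not given in the sources used here. Nrg4, an EGF-family ligand of ErbB4, had 6.08, 0.822 and 8.11 CPM against 16.1, 10.7 and 27.5 CPM, a difference of -1.91 (SE 0.57). Slc16a3, the lactate exporter MCT4, had 7.09, 7.40 and 12.7 CPM against 61.5, 16.0 and 39.1 CPM. The difference of -2.07 (SE 0.78) in the exporter rested on treated libraries within 6 CPM of one another and DMSO libraries that were wide apart. Nudt16, a nucleotide hydrolase, was at 42.5, 36.2 and 48.6 CPM against 76.2, 50.7 and 84.6 CPM. Atxn2l, a stress granule protein, was at 55.7, 52.6 and 46.3 CPM against 107, 58.7 and 118 CPM. Both were lower in all treated libraries, by -0.73 (SE 0.20) and -0.85 (SE 0.24) on the log2 scale. Casp1, the inflammasome protease, was at 139, 132 and 164 CPM against 221, 173 and 188 CPM. Micu2, a gatekeeper of mitochondrial calcium uptake, was at 126, 125 and 149 CPM against 186, 157 and 162 CPM. These were again lower in all treated libraries, by -0.42 (SE 0.13) and -0.33 (SE 0.12).

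Among genes with a mean of at least 20 CPM and groups that did not overlap, the largest log2 difference was that of Gm10925, at 113, 73.2 and 117 CPM in the treated libraries and 20.5, 17.8 and 27.5 CPM in the DMSO libraries. This difference was 2.19 (SE 1.05). The gene is annotated as an unprocessed pseudogene, and its 678 bases in GENCODE M21 are 100% identical to mt-Atp6, a mitochondrial gene for ATP synthase that had 1 or 2 counts in each of the 6 libraries. Reads of the pair cannot be told apart by sequence. In the other 30 libraries Gm10925 ranged from 9.74 to 160 CPM, and 12 of them were at or above the lowest treated library. Fitted on the 6 libraries alone it passed at an adjusted p of 0.00107 by edgeR, and with all 36 libraries it did not.

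No gene passed the test of 72 h against the shorter durations, which also differ in the days from passage to the start. Whether the difference between 170 min and DMSO at 72 h departed from the mean of that at 24 and 48 h was tested, and 0 of 11462 genes (0%) passed, with 499 at an unadjusted p under 0.05 and a smallest adjusted p of 0.938 by edgeR. The gene nearest to passing was 2310001H17Rik, a long noncoding RNA, at 46.6, 32.1 and 49.8 CPM against 61.5, 59.6 and 62.4 CPM at 72 h. Its treated libraries stood lower than DMSO at 72 h, by -0.53 on the log2 scale and by -0.34 without treated replicate 2, and higher before, by 0.53 after 24 h and 0.38 after 48 h. The interaction was -0.98 (SE 0.22).

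Against the other periods at 72 h, where the DAPT concentration differs with the period, again 0 genes (0%) passed, with 202 at an unadjusted p under 0.05 against 90 min and 592 against 130 min. These comparisons share the treated libraries with the one against DMSO. Guca2a was lower in 170 min than in 90 min by -0.60 (SE 0.16) on the log2 scale, and Defa30, an alpha-defensin, by -1.01 (SE 0.31). The Paneth median was -0.97 against 90 min and -0.53 against 130 min. In the same order the enterocyte median was -0.31 and 0.04, and the antimicrobial and Reg median was -0.35 and -0.0081. The fetal-like median was 0.02 and -0.52. Abcb10, a mitochondrial transporter, was 1.36 (SE 0.31) higher than in 130 min, and Mvk, mevalonate kinase, 0.78 (SE 0.20). Hes1 stood at -0.05 against 90 min and -0.11 against 130 min.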

How the data were processed

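Polyadenylated RNA of 36 libraries was sequenced by the Sort-seq method with molecular barcodes, per the labels' protocols. STAR 2.7.8a and UMI-tools 1.1.1 are named in the submitters' processing notes. From these the authors deposited a table of raw counts of UMIs for gene symbols, whole numbers in every library. The sources used here do not give its genome build or gene annotation. Symbols are printed as in that table.

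The 36 libraries form 12 groups of 3, placed by their titles. In edgeR 4.0.16 (R 4.3.3) filterByExpr kept 11462 of 34197 genes, TMM scaled the libraries, and quasi-likelihood tests used 1 coefficient per group (24 residual degrees of freedom, biological coefficient of variation 0.145), with Benjamini-Hochberg adjustment and a threshold of 0.05. DESeq2 1.42.0 and limma 3.58.1 (voom with quality weights) were alternatives, beside other filters, scalings, library sets, a depth covariate, replicate number as a block and leaving out each library. The scripts were tested on simulated data. Totals of 482741 to 1447330 counts limit genes of few molecules by counting error.

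Genes were named by smallest p and largest difference among those whose groups did not overlap, by smallest p in each list, by largest SD within a group, by a panel of 30 genes and by the leaders of the other contrasts. A few genes these rules name are not reported here. Members and lists were chosen with earlier results of these data known. Lists are described by counts and medians, with no set test. List scores are means of log2(CPM + 1). Promoters came from RefSeq (GRCm38.p6), where 86 of the 115 genes examined singly had an entry.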

Additional observations from a re-analysis of the deposited data

Results flagged for a closer look

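Of the genes examined and lists scored, 147 in all, 7 values came from genes whose treated libraries all lay on one side of DMSO at 72 h and all on the other side at 24 or 48 h. These differences between durations did not pass the interaction test, whose adjusted p by edgeR was 0.938 or more for each. Many of the genes examined were named for groups apart at 72 h. No such count was made over all genes tested, so the 7 values have no background share. Lsr, a lipoprotein receptor of tricellular junctions, stood at 0.53 on the log2 scale at 72 h, between 0.34 without DMSO replicate 1 and 0.81 without DMSO replicate 2, and -0.36 at 24 h. Hmox1 stood at 1.62 at 72 h, 0.88 without treated replicate 2, and -1.63 at 48 h. 2310001H17Rik stood at -0.53 at 72 h (-0.34 without treated replicate 2), 0.53 at 24 h and 0.38 at 48 h. Defa38 stood at -1.62 at 72 h and 1.01 at 24 h. Nat8f5 stood at -1.05 at 72 h, -0.49 without treated replicate 2, and 0.79 at 48 h. Its DMSO libraries at 48 h were wide apart, from 8.33 to 102.8 CPM. Anxa10, an annexin of gastric epithelium, stood at 0.31 at 72 h, 0.13 without treated replicate 2, and -0.72 at 24 h. No list score was opposed in this way.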

How the results depend on the processing

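The count of genes past the threshold against DMSO stayed at 0 higher and 0 lower under every setting run except 3. The replicate block in the 6 libraries alone gave 1 higher (Gm10925) and 1 lower (Reg3g), the 6 libraries without a block gave 1 higher (Gm10925, adjusted p 0.00107 by edgeR), and no filter on low counts gave 1 lower (Gm16559, adjusted p 0.0075 by edgeR). The replicate block over the 12 libraries of 72 h gave 0. Same-numbered libraries of the groups had correlations of deviations of 0.02, 0.02 and -0.25, and differently numbered ones ran from -0.21 to 0.20. With 3 libraries per group these values do not decide whether the numbers pair the libraries. With the replicate block, 170 against 90 min gave 1 lower, and 170 against 130 min gave 1 higher and 5 lower, where the fit without it gave 0. Leaving out 1 library at a time, genes without overlap numbered 981 to 1420 higher and 907 to 1466 lower, each from 3 libraries against 2. Smaller groups fail to overlap more often even where nothing differs. These counts therefore cannot be set beside those from 3 libraries against 3. Genes at an unadjusted p under 0.05 ran from 160 with DESeq2 to 614 with no filter. Of 1932 values of the 115 genes examined over the settings 1902 kept their sign, and of 543 list medians 498 did. Genes of few counts are limited by depth.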
